A study of Mus musculus with 6 samples.

Results

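Hedgehog co-receptor, Scube and Evc genes are 8 genes that act at the beginning and in the middle of Hedgehog signalling. They were taken by symbol from the table of estimated gene counts, which lists 22287 genes, and all 8 were found and passed the filter on low counts. Apical tissue of lower first molars, where the root forms, was taken from C57BL/6 mice at postnatal day 7.5. All mice were given tamoxifen at postnatal day 3.5 (1.5 mg per 10 g of body weight). The control group had the genotype Arid1a fl/fl, in which loxP sites flank Arid1a, which encodes a subunit of BAF chromatin remodellers that binds DNA (3 libraries, replicates 2, 3 and 5). The mutant group had the genotype Gli1-CreER;Arid1a fl/fl and so carried the same floxed alleles plus a tamoxifen-activated recombinase driven by Gli1, which is active in Hedgehog-responsive cells (3 libraries, replicates 3, 4 and 5). The recombinase was named for the mutants alone, so its own effects and those of Arid1a loss cannot be told apart. The labels do not say whether a library held 1 animal, so p-values reflect only how these libraries vary, which may be technical in part.

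Hedgehog ligands carry cholesterol, and cells release them through the transporter Disp1 together with secreted proteins of the Scube family. On a receiving cell, Gas1, Boc and Cdon bind the ligand and help it to engage Ptch1, which frees Smo to enter the primary cilium. There Smo meets a complex of Evc and Evc2 that passes the signal to the Gli factors. In the developing tooth the dental epithelium makes Sonic hedgehog and the neighbouring mesenchyme answers it. Loss of Evc or Evc2 in humans causes Ellis-van Creveld syndrome, which affects bones and teeth.

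Of the 8 genes, Gas1 and Scube2 rose in the mutants and none fell at an adjusted p under 0.05 (edgeR quasi-likelihood test, Benjamini-Hochberg adjustment over 17305 genes). Among all genes tested, 1.86% were called, 0.659% as higher and 1.20% as lower. The other 6 did not pass. At an unadjusted p under 0.05 the numbers were 4 higher and 1 lower, beside 15.0% of all genes in either direction (7.13% higher and 7.83% lower). DESeq2 and edgeR's likelihood ratio test each gave 2 higher and 0 lower. Each mutant library lay above each control library for 4 of the 8 genes (Gas1, Boc, Scube2 and Evc), as for 10.6% of all genes. None of the 8 had all mutants below all controls, which 10.8% of all genes had, so that 21.3% of all genes did not overlap in one direction or the other. The median log2 fold change of the 8 genes was 0.18, beside 0.01 for all genes. Both calls were lost whenever any single library was left out, while the fold changes of Gas1 and Scube2 stayed positive in each of the 6 reduced fits.

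**Figure D1:**
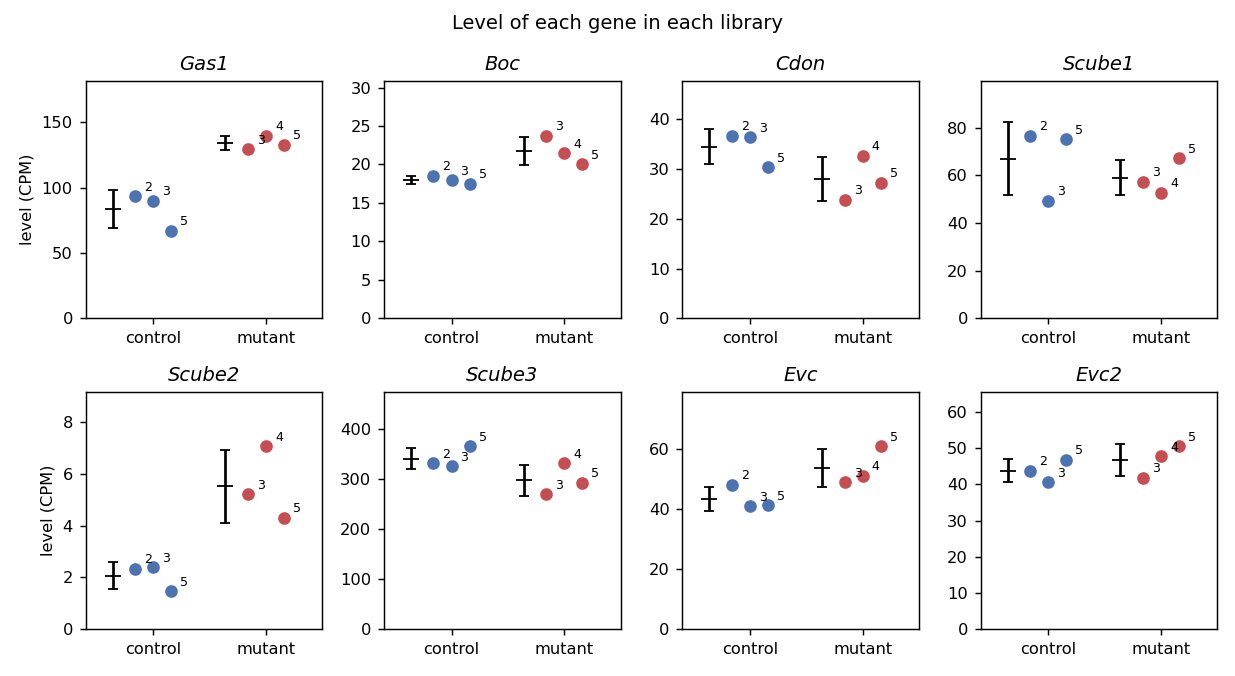
Level of each of the 8 genes in CPM (y axis from 0) in the 3 control (blue) and 3 mutant (red) libraries. Numbers beside points are replicate numbers, and the black dash and bar give the group mean and SD. The mutant points of Gas1 (129 to 140 CPM) and Scube2 (4.30 to 7.07 CPM) lie above all control points of the same gene.

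The libraries held 20453247 to 24255352 estimated counts, so that the least abundant of the 8 genes, Scube2, rested on 27 to 163 reads per library and the most abundant, Scube3, on 6660 to 7625. Levels are given as CPM, which scales all libraries to one common size, on library sizes scaled by TMM, a method that sets the bulk of genes equal between libraries. The targeted gene Arid1a stood at 210, 202 and 204 CPM in control replicates 2, 3 and 5 and at 120, 134 and 130 in mutant replicates 3, 4 and 5. Of the genes tested, 114 were higher and 208 were lower, and with scaling to library totals alone the numbers were 411 and 109, since that scaling moved the median over all genes from 0.01 to 0.21 on the log2 scale. The enamel matrix gene Amelx made up a large and unequal part of the libraries, with 109350 to 209050 CPM in controls and 37117 to 62078 in mutants. Fewer cells of a type and less RNA per cell cannot be told apart in such bulk samples.

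Levels of several cell type marker lists lay apart between the groups. Defining markers of molar tissue were present, with the odontoblast gene Dspp at 6911 to 9983 CPM over the 6 libraries. The mean log2(CPM + 1) of 8 dental follicle and periodontal ligament markers was 5.43 to 5.75 in controls and 5.88 to 6.23 in mutants, and 3 of the 8 were called higher. That of 9 dental mesenchyme progenitor markers was 5.55 to 5.68 in controls and 5.84 to 5.92 in mutants, with 3 called higher and 1, Gli1, lower. Pericyte and smooth muscle (6 markers, 1 higher), macrophage (7 markers, 1 higher), Schwann cell (5 markers, 0 called, 3 higher and 1 lower at an unadjusted p under 0.05) and endothelial levels (7 markers, 0 called, 1 higher at an unadjusted p under 0.05) were also higher in every mutant than in every control. Beside these unadjusted counts stand 7.13% of all genes higher and 7.83% lower. DESeq2 called 2 higher Schwann cell markers and 0 endothelial ones.

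The erythroid level was 5.46 to 5.91 in controls and 5.88, 7.11 and 6.73 in mutant replicates 3, 4 and 5. The dental epithelium level was 9.43 to 9.89 in controls and 8.79 to 9.48 in mutants, with 1 of 10 markers, Amelx, called lower. At an unadjusted p under 0.05, 5 of the 10 were lower and 0 higher (7.83% and 7.13% of all genes). DESeq2 called 3 epithelial markers lower and the likelihood ratio test 4. With 1 library left out, 0 to 2 follicle markers, 0 to 2 progenitor markers, 0 to 1 pericyte marker and 0 macrophage markers were called higher, and 0 to 1 progenitor marker and 0 to 1 epithelial marker were called lower, the epithelial one being Enam without mutant replicate 4. Without mutant replicate 3, edgeR's quasi-likelihood test called 4 erythroid markers higher and with all libraries 0, while DESeq2 and the likelihood ratio test each called 4 with all libraries. The skeletal muscle level was 2.27 in control replicate 2, with Acta1 at 11.6 and Myh8 at 9.44 CPM, and 0.819 to 1.44 in the other 5 libraries. Myh3 was at 0 in control replicate 3 and mutant replicate 4. The part of these cell types in the changes of Gas1 and Scube2 was not tested. Fits with the erythroid or the epithelial level as a term were run as alternatives. Both levels went largely with the group, so such a term cannot separate a cell type's part from the group. Over all genes, 114 higher and 208 lower calls became 1 and 7 with the erythroid term and 12 and 15 with the epithelial term. With the erythroid level as a term, the log2 fold change of Gas1 was 0.52 (adjusted p = 0.3396, edgeR) and that of Scube2 was 1.10 (adjusted p = 0.327). With the epithelial level as a term, Gas1 was at 0.58 (adjusted p = 0.200) and Scube2 at 1.55 (adjusted p = 0.142).

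**Figure D2:**
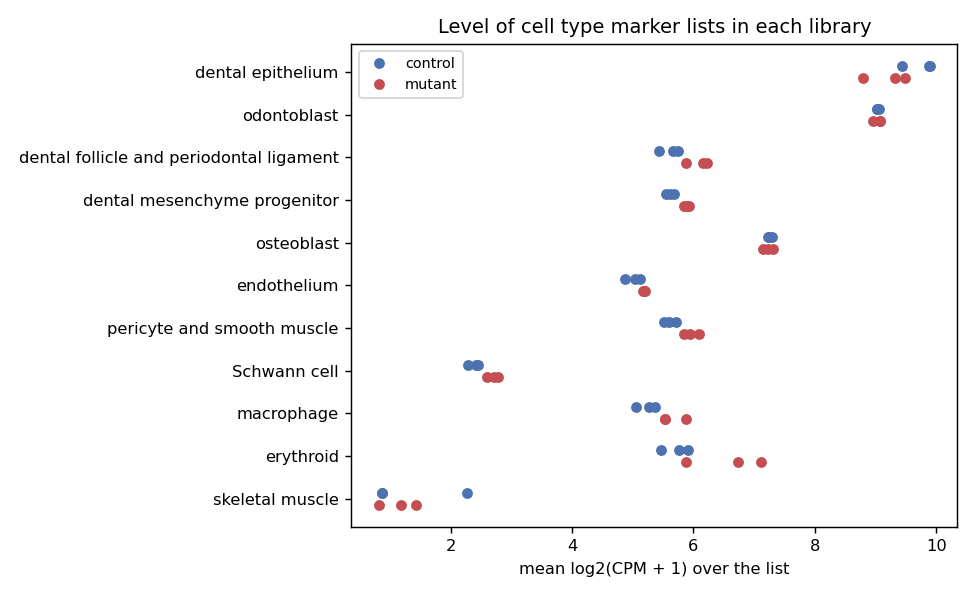
Mean log2(CPM + 1) of each list of cell type markers (x axis) in each control (blue) and mutant (red) library. The follicle list separates the groups (5.43 to 5.75 in controls, 5.88 to 6.23 in mutants), while the osteoblast list overlaps (7.22 to 7.30 and 7.14 to 7.31).

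Gas1 encodes a GPI-anchored surface protein that binds Hedgehog ligand, and its name, growth arrest specific, comes from cells that had stopped dividing. It stood at 93.5, 90.03 and 67.0 CPM in control replicates 2, 3 and 5 and at 129, 140 and 133 in mutant replicates 3, 4 and 5. The 3 mutant libraries lay close together, and control replicate 5 was the lowest of all. The group means were 83.5 ± 14.4 and 133.9 ± 5.30 CPM (SD, n = 3), a 1.60-fold rise (log2 fold change 0.68, SE 0.12, adjusted p = 0.0443, edgeR quasi-likelihood test). Of the 17305 genes tested, 642 had a larger rise, and it ranked 245 by p. Without control replicates 2, 3 and 5 in turn the adjusted p was 0.0809, 0.123 and 0.062 (edgeR), and without mutant replicates 3, 4 and 5 it was 0.0652, 0.139 and 0.106. Gas1 lies on the minus strand of chromosome 13 of mm10 from 60174405 to 60177365 and its exons span 2961 bases. A lincRNA gene on the opposite strand, Gm48488, shares 589 of these bases. It was given 49.4 to 127 counts per library against 1231 to 3343 for Gas1, and the sources used here do not say whether the counting used strand.

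The promoter window of Gas1 is shown because the gene is one of the pair that rose. It runs from 250 bases before to 50 bases after the RefSeq start site (chr13:60177486-60177785, minus strand, GRCm38.p6, 5′ to 3′). Capitals mark GC boxes (GGGCGG on either strand) and CCAAT boxes (CCAAT on either strand).
Gas1: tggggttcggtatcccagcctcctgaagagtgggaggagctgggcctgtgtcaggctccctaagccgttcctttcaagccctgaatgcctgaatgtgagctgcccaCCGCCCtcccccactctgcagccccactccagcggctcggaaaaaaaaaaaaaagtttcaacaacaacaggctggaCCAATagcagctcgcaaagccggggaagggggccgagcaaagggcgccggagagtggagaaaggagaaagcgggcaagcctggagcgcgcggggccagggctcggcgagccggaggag
It holds 1 GC box, which begins 144 bases before the start, and 1 CCAAT box, which begins 68 bases before it. The window lies wholly outside the gene span given above, so these distances refer to the RefSeq start and not to that span. A window of this kind was at hand for 7 of the 8 genes, all but Boc. Windows of 1 chromosome, which holds none of the 8 genes, were left out of the comparison set. Over the other 32851 windows, 35.7% hold a GC box and 37.4% a CCAAT box, against 5 and 4 of the 7. Shares of all windows given here and below refer to this set. The GLI consensus GACCACCCA, which the Gli factors recognise, is in none of the 7 windows on either strand and in 0.253% of all windows. The palindrome GGGGCCCC, known to be bound by the Plagl1 protein named in the series title, is in none of the 7 and in 1.08% of all, and the TATA box TATAAA is in none of the 7 and in 13.6% of all. These are matches of letters in 300 bases and say nothing of binding.

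Boc, a transmembrane co-receptor with immunoglobulin and fibronectin domains, was measured at 18.5, 17.9 and 17.5 CPM in control replicates 2, 3 and 5. In mutant replicates 3, 4 and 5 it was at 23.7, 21.5 and 20.1 CPM. Its groups did not overlap, and its controls were the tightest of all the 8 genes, with an SD of 2.82% of the mean. The difference did not pass the test (18.0 ± 0.506 and 21.8 ± 1.85 CPM, SD, n = 3, log2 fold change 0.27, SE 0.09, adjusted p = 0.219). Boc lies on the minus strand of chromosome 16 from 44485049 to 44558897.

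Cdon, the closest relative of Boc, had a negative fold change. Its values were 36.7, 36.5 and 30.4 CPM in control replicates 2, 3 and 5 and 23.9, 32.7 and 27.3 in mutant replicates 3, 4 and 5. Mutant replicate 4 was above control replicate 5, so the groups overlapped, and the difference did not pass (34.5 ± 3.57 and 28.0 ± 4.45 CPM, SD, n = 3, log2 fold change -0.31, SE 0.13, adjusted p = 0.327, edgeR). Cdon lies on the plus strand of chromosome 9 from 35421128 to 35507652. Its single RefSeq window lies inside this span (chr9:35451826-35452125) and has 3 CpG dinucleotides, fewer than the 16 to 36 of the other 6 windows.

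Within each library the 3 co-receptors were also set against each other. Such a ratio does not depend on how libraries are scaled. The log2 ratio of Gas1 to Cdon, each per kilobase of exon, was 2.73, 2.69 and 2.52 in controls and 3.82, 3.48 and 3.66 in mutants. The mean difference was 1.007 with no overlap (exact two-sided permutation p = 0.1, the smallest that 3 against 3 allows). Boc against Cdon, on the same scale, was -0.23 to 0.00 in controls and 0.19 to 0.78 in mutants, a mean difference of 0.58 (exact p = 0.1). The log2 ratio of Gas1 to Boc was 2.52 to 2.92 and 3.03 to 3.32, a mean difference of 0.43 (exact p = 0.1). Over the 7 pairs compared within families, each of these has an adjusted p of 0.14 (exact permutation, Benjamini-Hochberg). With 3 against 3 libraries no ratio could fall under 0.05, so these p-values cannot decide whether a ratio differs. How often ratios of other gene pairs do not overlap was not computed. Of the summed level per kilobase of the 3 co-receptors, Gas1 made up 76.6 ± 2.10% in controls and 84.2 ± 0.550% in mutants (SD, n = 3). Cdon made up 12.3 ± 0.606% and 6.72 ± 0.798%, and Boc 11.2 ± 1.51% and 9.11 ± 0.978%.

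**Figure D3:**
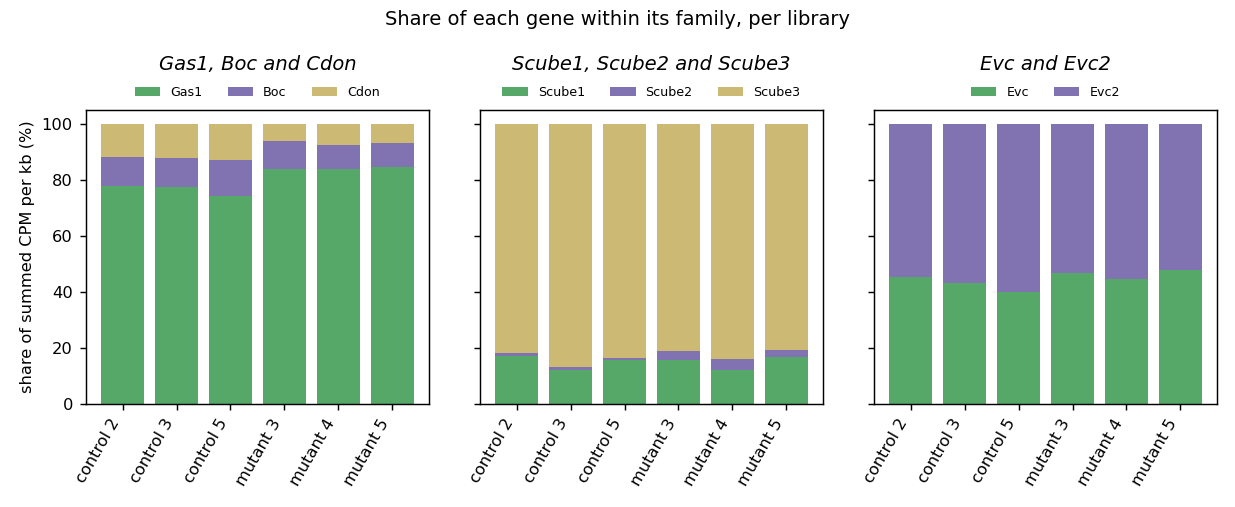
Share of each gene in the summed level per kilobase of exon of its family (y axis, percent) in each of the 6 libraries. Gas1 makes up 74.2 to 78.0% of the co-receptor level in controls and 83.8 to 84.8% in mutants, and Scube2 is the thin middle band of the Scube panel (0.718 to 1.36% and 2.53 to 3.83%).

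Scube2 encodes a secreted protein with EGF repeats and a CUB domain that takes the cholesterol-bearing ligand from the cell surface. It had the lowest level of the 8 genes and the largest fold change. Its values were 2.33, 2.39 and 1.47 CPM in control replicates 2, 3 and 5, from 48, 51 and 27 reads. In mutant replicates 3, 4 and 5 they were 5.22, 7.07 and 4.30 CPM, from 135, 163 and 98 reads. The lowest mutant was well above the highest control, and mutant replicate 4 stood highest. The group means were 2.06 ± 0.516 and 5.53 ± 1.41 CPM (SD, n = 3), a 2.66-fold rise (log2 fold change 1.41, SE 0.26, adjusted p = 0.0465, edgeR quasi-likelihood test). It was larger than that of all but 79 of the genes tested. Without control replicates 2, 3 and 5 in turn the adjusted p was 0.107, 0.139 and 0.124 (edgeR), and without mutant replicates 3, 4 and 5 it was 0.0735, 0.141 and 0.0650. limma-voom gave an adjusted p of 0.0576.

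The gene lies on the minus strand of chromosome 7 from 109798676 to 109865679. Its promoter window (chr7:109865630-109865929, minus strand, GRCm38.p6, 5′ to 3′) is shown with GC boxes in capitals, since it holds more of them than any other of the 7 windows.
Scube2: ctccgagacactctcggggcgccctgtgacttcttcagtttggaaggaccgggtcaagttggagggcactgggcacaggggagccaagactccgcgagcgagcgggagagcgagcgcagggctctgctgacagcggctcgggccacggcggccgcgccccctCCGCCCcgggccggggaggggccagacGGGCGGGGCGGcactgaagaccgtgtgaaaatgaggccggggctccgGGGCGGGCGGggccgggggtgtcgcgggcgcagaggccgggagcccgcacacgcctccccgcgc
It has 5 GC boxes, of which 4 form overlapping pairs 61 and 14 bases before the start, and no CCAAT box. Its 36 CpG dinucleotides exceed those of 93.8% of all windows, which have a median of 7. Gas1, the other gene that rose, has 17 CpG in its window, so the windows of this pair differ in that respect.

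Scube3, which encodes a secreted protein of the same family, was the most abundant of the 8 genes in CPM and did not pass the test. It stood at 331, 325 and 365 CPM in control replicates 2, 3 and 5 and at 269, 331 and 292 in mutant replicates 3, 4 and 5. Mutant replicate 4 lay within the control range. The means were 340.2 ± 21.4 and 297.4 ± 31.1 CPM (SD, n = 3, log2 fold change -0.19, SE 0.10, adjusted p = 0.412), and with scaling to library totals the sign turned (0.01). Scube3 lies on the plus strand of chromosome 17 from 28142141 to 28174854, where a lncRNA gene on the opposite strand, AC126937.2, shares 198 of its exon bases and was given 102 to 151 counts.

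Scube1, the remaining family member, varied most among controls relative to its mean after Scube2. Its values were 76.7, 49.4 and 75.3 CPM in control replicates 2, 3 and 5 and 57.3, 52.7 and 67.2 in mutant replicates 3, 4 and 5. Control replicate 3 was below all mutants while the other controls were above them. The difference did not pass (67.1 ± 15.3 and 59.1 ± 7.40 CPM, SD, n = 3, log2 fold change -0.18, SE 0.17, adjusted p = 0.692), and the sign turned with scaling to library totals (0.03). Scube1 lies on the minus strand of chromosome 15 from 83604999 to 83725021.

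The Scube genes were set against each other in the same way. Scube2 against Scube3, as a log2 ratio per kilobase, was -6.06, -6.00 and -6.86 in controls and -4.60, -4.46 and -5.00 in mutants, a mean difference of 1.62. Scube1 against Scube2, on the same scale, was 3.13 to 4.44 in controls and 1.66 to 2.72 in mutants, a mean difference of -1.59. Neither ratio overlapped between groups (exact permutation p = 0.1 for each, the smallest possible, adjusted p = 0.14 over 7 pairs). The log2 ratio of Scube1 to Scube3 differed by 0.03 (exact p = 0.8). Scube2 still made up 3.24 ± 0.656% of the summed Scube level per kilobase in mutants, against 1.10 ± 0.338% in controls (SD, n = 3). The summed level per kilobase of the family was 42.4 to 49.2 CPM per kb in controls and 37.5 to 44.5 in mutants.

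Evc and Evc2 encode partner proteins of the ciliary complex that binds Smo, and they lie head to head on chromosome 5. Evc spans 37289098 to 37336894 on the minus strand and Evc2 spans 37338499 to 37425055 on the plus strand, with 1604 bases between them. Evc was at 48.0, 40.8 and 41.3 CPM in control replicates 2, 3 and 5 and at 48.9, 50.9 and 60.7 in mutant replicates 3, 4 and 5. Its groups did not overlap, though mutant replicate 3 exceeded control replicate 2 by less than 1 CPM, and the difference did not pass (43.3 ± 4 and 53.5 ± 6.31 CPM, SD, n = 3, log2 fold change 0.30, SE 0.11, adjusted p = 0.230). Evc2 was at 43.8, 40.7 and 46.9 CPM in controls and at 41.9, 47.9 and 50.5 in mutants. Its groups overlapped and it did not pass (43.8 ± 3.12 and 46.8 ± 4.41 CPM, SD, n = 3, log2 fold change 0.09, SE 0.10, adjusted p = 0.713).

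The log2 ratio of Evc to Evc2 per kilobase was -0.27, -0.39 and -0.59 in controls and -0.18, -0.31 and -0.13 in mutants. These overlapped, with a mean difference of 0.21 (exact permutation p = 0.2, adjusted p = 0.233 over 7 pairs). The windows at their start sites are shown because the pair is divergent (Evc: chr5:37336832-37337131, minus strand. Evc2: chr5:37338228-37338527, plus strand. GRCm38.p6, 5′ to 3′, GC and CCAAT boxes in capitals).
Evc: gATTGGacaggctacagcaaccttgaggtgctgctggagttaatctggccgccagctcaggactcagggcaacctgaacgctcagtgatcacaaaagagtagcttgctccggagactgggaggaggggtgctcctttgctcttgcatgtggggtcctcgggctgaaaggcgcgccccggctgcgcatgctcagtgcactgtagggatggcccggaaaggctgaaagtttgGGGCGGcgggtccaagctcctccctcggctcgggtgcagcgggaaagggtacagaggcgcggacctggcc
Evc2: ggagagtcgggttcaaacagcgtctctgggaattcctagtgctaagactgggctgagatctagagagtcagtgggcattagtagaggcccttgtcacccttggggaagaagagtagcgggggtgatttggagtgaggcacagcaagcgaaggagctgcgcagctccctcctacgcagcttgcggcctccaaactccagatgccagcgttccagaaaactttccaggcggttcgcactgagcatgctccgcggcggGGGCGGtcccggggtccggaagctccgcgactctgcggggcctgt
Each window holds 1 GC box, 20 bases before the start in Evc and 5 bases after it in Evc2. Evc also has a CCAAT box at the outer end of its window. The windows carry 16 and 19 CpG dinucleotides, more than 67.0% and 71.9% of all windows.

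Ordered by level per kilobase of exon, Scube3 led in controls at 38.5 CPM per kb (range 36.8 to 41.2) and Gas1 followed at 28.2 (22.6 to 31.6). Evc2 (7.5), Scube1 (6.83) and Evc (5.63) came next, and each of these overlapped its neighbour in the order. Cdon (4.48) and Boc (4.04) also overlapped each other, and Scube2 was last at 0.497 CPM per kb. In mutants Gas1 led at 45.2 (43.6 to 47.2) and Scube3 was second at 33.6 (30.4 to 37.4), so the order of this pair was the reverse of that in controls, without overlap in either group. Evc2 (8.01), Evc (6.95) and Scube1 (6.01) again overlapped their neighbours. Boc (4.89, range 4.51 to 5.33) lay above Cdon (3.62, range 3.10 to 4.24) without overlap, and Scube2 was at 1.33. These per-length values divide by the union of annotated exons, which can be longer than any single transcript for genes with several.

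**Figure D4:**
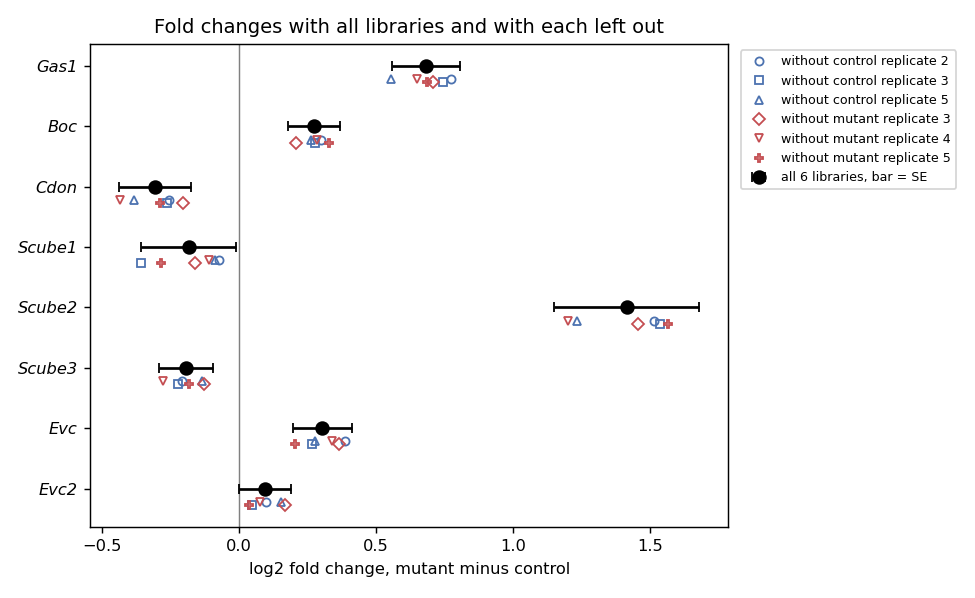
Log2 fold change (x axis, mutant minus control) of each gene with all 6 libraries (black, bar = SE) and with each library left out (open blue for controls, red for mutants). Gas1 ranges from 0.55 to 0.77 and Scube2 from 1.20 to 1.56 over the 6 reduced fits, and no gene crosses 0.

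Other genes of the pathway were read from the same fit. Of 39 tested Hedgehog ligand, receptor, transducer and target genes other than the 8, none rose and 1 fell, and the median log2 fold change was -0.01. At an unadjusted p under 0.05 they were 3 higher and 9 lower, beside 7.13% and 7.83% of all genes. DESeq2 called 1 higher and 3 lower. All mutants lay above all controls for 4 of the 39 genes and below them for 10, beside 10.6% and 10.8% of all genes. Gli1, the target and effector, was at 91.1, 76.7 and 98.0 CPM in control replicates 2, 3 and 5. It fell to 32.7, 39.8 and 39.3 CPM in mutant replicates 3, 4 and 5 (adjusted p = 0.00753, edgeR, log2 fold change -1.25). The commonly used Gli1-CreER line carries the recombinase inserted at Gli1. The labels do not name the line, so for Gli1 an effect of such an allele cannot be told apart from that of Arid1a loss.

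Without control replicate 2 the adjusted p of Gli1 was 0.0506 (edgeR). Among ligands, Shh was at 32.3, 28.6 and 18.1 CPM in controls and 12.3, 21.7 and 25.6 in mutants (adjusted p = 0.577), and Dhh was near 1 CPM or below (0.521 and 1.03, adjusted p = 0.241). Ihh was too low to test, at most 0.341 CPM in any library. Disp1, the transporter that works with the Scube proteins, was at 24.8 and 23.4 CPM (adjusted p = 0.760). Ptch1, to which the co-receptors pass the ligand, was at 274, 242 and 279 CPM in controls and 152, 209 and 231 in mutants (adjusted p = 0.226, edgeR). Its mutants all lay below its controls, as for 10.8% of all genes. The groups overlapped for Hhip, at 35.7 and 42.9 CPM (adjusted p = 0.736, edgeR). They also overlapped for Smo, the partner of the Evc complex, at 152 and 164 CPM (adjusted p = 0.517, edgeR).

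None of the 19 intracellular transducers passed in edgeR, where 7 were lower and 0 higher at an unadjusted p under 0.05 (7.83% and 7.13% of all genes). DESeq2 and the likelihood ratio test each called 2 lower, Kif7, a ciliary kinesin, and the kinase gene Gsk3b. Gli2 (51.7 and 39.4 CPM, adjusted p = 0.135) and Gli3 (93.3 and 99.0 CPM, adjusted p = 0.835) did not pass. All mutants lay below all controls for 8 of the 19, beside 10.8% of all genes. Gli2 was among these, while the groups overlapped for Gli3.

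**Figure D5:**
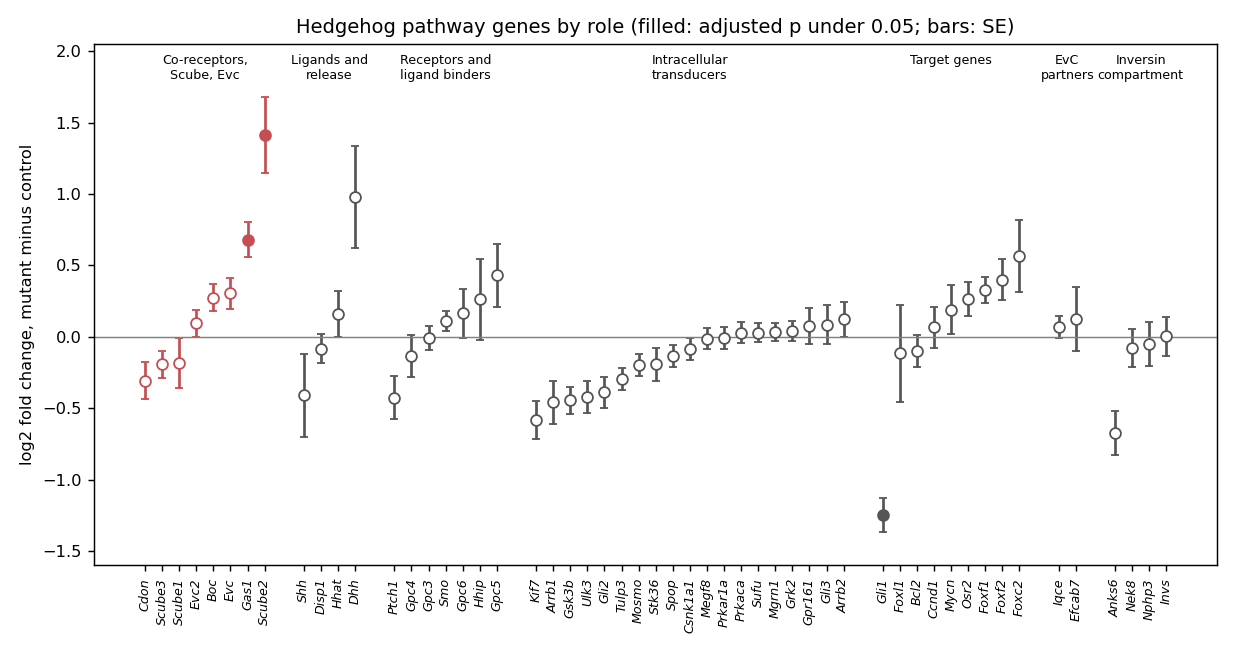
Log2 fold change (y axis, mutant minus control) of the 8 genes (red) and other Hedgehog pathway genes (grey) by role, with SE bars. Filled points passed the test (adjusted p under 0.05): Scube2 (1.41) and Gas1 (0.68) above 0 and Gli1 (-1.25) below. Ptch1 and Hhip, which are also targets, are drawn once, with the receptors.

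Genes that work with the Evc complex or in the cilium gave no call with edgeR's quasi-likelihood test on all libraries. The partner genes Iqce (27.8 and 29.1 CPM, adjusted p = 0.755) and Efcab7 (2.95 and 3.23 CPM, adjusted p = 0.851) did not pass, with 0 of 2 at an unadjusted p under 0.05. Of 4 genes of the inversin compartment, a segment of the cilium, 0 passed in edgeR. Anks6 was at 45.0, 39.8 and 44.4 CPM in controls and 22.1, 34.0 and 24.9 in mutants (adjusted p = 0.0814, log2 fold change -0.67), and was called lower by DESeq2, by the likelihood ratio test and without mutant replicate 4 (adjusted p = 0.0371, edgeR). Of 35 genes for intraflagellar transport and the base of the cilium, 0 were called by edgeR, DESeq2 or limma-voom, 0 had an unadjusted p under 0.05, and the median log2 fold change was -0.01.

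Relatives of the co-receptors were also read. Gas1 resembles the Gfra receptors of the GDNF family. Of 5 GDNF receptor genes tested (Gfra1 to Gfra4 and Ret) 1 rose. It was Gfra4, at 4.33, 3.84 and 4.03 CPM in controls and 7.03, 6.94 and 6.59 in mutants (adjusted p = 0.0398, edgeR, log2 fold change 0.75, SE 0.13). Its call was lost in all 6 fits with a library left out (adjusted p = 0.0804 to 0.155, the lowest without mutant replicate 3 and the highest without control replicate 3). Gfra3 was at 1.44 and 2.83 CPM (adjusted p = 0.0697, edgeR), and was called higher by DESeq2 (adjusted p = 0.0445), the likelihood ratio test (0.0102) and with library totals (0.0444). Of 7 other genes named growth arrest specific, which share a name and not a structure with Gas1, 0 passed in edgeR, 1 was higher and 1 lower at an unadjusted p under 0.05, and DESeq2 called Gas6 lower. Of 9 partners and relatives of Boc and Cdon, such as the cadherin gene Cdh2, the netrin receptor gene Neo1 and Robo genes, 0 passed in edgeR or DESeq2, with 2 higher and 1 lower at an unadjusted p under 0.05. Over all genes, 7.13% were higher and 7.83% lower at that unadjusted cut.

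Genes flanking the 8 loci did not pass. Beside Gas1, Tut7 lay 351 kb away (log2 fold change -0.08) and Dapk1 425 kb away (-0.14). Beside Scube2, Dennd5a lay 28.1 kb away at 144 and 141 CPM (-0.04), while Nrip3, 16.7 kb away, was at 0.282 and 0.652 CPM (adjusted p = 0.279). These nearest tested protein-coding neighbours were read after the values of the 8 genes were known.

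For each member, the genes most like it in log2(CPM + 1) over the 6 libraries were sought among 10824 genes. These had a mean of at least 5 CPM, and unnamed gene models and genes on X and Y were left out. For Gas1 they were Hspa14 (Pearson r = 0.997), Adal (0.996) and the lipoprotein lipase gene Lpl (0.992), and 312 genes had an r above 0.9. For Scube2 they were Ubtd2 (0.995), Trp53 (0.994) and the integrin gene Itga11 (0.990). The closest were Cfap69 for Boc (0.996), Fam91a1 for Cdon (0.994), B4galnt4 for Scube1 (0.995), Mllt10 for Scube3 (1, rounded), Laptm5 for Evc (0.996) and Nedd4 for Evc2 (0.993). With 6 points that share libraries, and with so many genes searched, such values are a description of these libraries.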

How the data were processed

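RNA sequencing gave 6 libraries, 3 per group, grouped by the genotype label, with replicate numbers from the sample titles. RNA integrity numbers were above 9, with 75 single-end cycles, per the labels' protocols. The submitters' processing notes name STAR 2.6.1d, Partek and mm10. The authors deposited expected counts per gene (22287 genes, all with 10 or more summed over libraries). The authors also deposited a normalized signal for 18665 genes, equal to the expected count plus 1 times a factor per library, which was used for 1 alternative.

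Expected counts were rounded and filtered with filterByExpr (17305 genes kept), scaled by TMM and tested with edgeR 4.0.16 (R 4.3.3). An SE was obtained by dividing the size of the log2 fold change by the root of its F statistic. The members and gene lists were chosen with earlier results of these data known. From the Hedgehog lists 1 gene is not reported here and is not in their counts. Named genes are the 8 members, called genes of the Hedgehog, cilium and related lists, and listed ligands, receptors and partners. Called marker genes are mostly given as counts. Positions of 99.9% of genes equal GENCODE M21, which gave exon lengths. Promoter windows are from RefSeq (GRCm38.p6). Ratios were compared by exact permutation (SciPy 1.17.1).

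No library is a copy of another: within groups, chi-square per degree of freedom was 22.3 to 41.0. On simulated data with this design, run on a median of 17327 genes, 28.3% of 1.5-fold, 69.7% of 2-fold and 93.7% of 4-fold changes were recovered, and 9.84% of calls were false. That share is above the nominal level of the cut (adjusted p under 0.05). Gas1 (0.0443) and Scube2 (0.0465) lay just under that cut in edgeR's quasi-likelihood test. Changes were simulated in a small part of the genes, all above a minimum level. Alternatives were RLE, upper-quartile and total scaling, other filters, DESeq2 1.42.0, limma-voom (limma 3.58.1), limma on the deposited normalized signal (as log2 of value + 1), edgeR's likelihood ratio test, each library left out, a replicate block, and erythroid or epithelial marker terms.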

Additional observations from a re-analysis of the deposited data

How the results depend on the processing

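Over 18 alternatives, the fold changes of Gas1 (0.52 to 0.87), Boc, Cdon, Scube2 (1.08 to 1.60) and Evc kept their sign. Gas1 was called in 9 of the 18 and Scube2 in 8, and no other member was called in any. Signs turned for Scube1 with library totals (0.0259) and the replicate block (0.0243), for Scube3 with library totals (0.0107), and for Evc2 with the erythroid term (-0.0035) and the epithelial term (-0.0215), none of which passed a test.

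Of the 8 genes, the number called higher (2) was 1 with limma-voom, 0 with the replicate block, the erythroid term and the epithelial term, and 0 in all 6 fits with 1 library left out. The number called lower was 0 in every alternative. For the other Hedgehog genes, 1 was called higher with library totals (Foxf2) and with DESeq2 (Foxf1). The number lower (1, Gli1) was 3 with DESeq2 and the likelihood ratio test, 0 with the erythroid term and 0 to 1 with 1 library left out. Of all genes, 114 higher and 208 lower became 411 and 109 with library totals, 364 and 510 with DESeq2, 364 and 455 with the likelihood ratio test, 19 and 71 with the replicate block, 1 and 7 with the erythroid term and 12 and 15 with the epithelial term. With 1 library left out they ranged from 1 to 105 and from 10 to 138. Fits with a library left out, a block or a term have fewer degrees of freedom, and otherwise the cause was not tested.

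Controls and mutants have the replicate numbers 3 and 5 in common, and nothing in the labels ties these 2 pairs to a shared litter or day. The deviations of same-numbered libraries from their group means correlated at 0.324 for number 3 and at -0.169 for number 5 over 12109 genes. With the replicate block, Gas1 was at 0.75 (adjusted p = 0.118, edgeR) and Scube2 at 1.32 (adjusted p = 0.159). Control replicate 2 and mutant replicate 4 share their numbers with no other library. In the block fit the group difference therefore comes from numbers 3 and 5 alone.

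Scube2 rested on 27 to 51 reads in controls and 98 to 163 in mutants, and its fold change is the least precise of the 8 (SE 0.26). Its SD was 25% of the mean in controls and 25.5% in mutants, and the source of this spread was not tested. In simulated data of this design 28.3% of 1.5-fold changes were recovered, and smaller changes, such as those of Boc, Cdon and Evc, were not simulated.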

Other observations

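Among the 5 GDNF receptor genes tested, the values of 3 (Gfra3, Gfra4 and Ret) were higher in every mutant than in every control. Of all genes tested, 10.6% had all mutants higher. Ret was at 5.30, 5.66 and 4.41 CPM in controls and 7.19, 5.73 and 6.72 in mutants (adjusted p = 0.358, edgeR). Ntn1, which encodes netrin, a ligand of receptors related to Boc and Cdon, was at 20.2, 16.3 and 14.7 CPM in controls and 22.7, 28.8 and 21.2 in mutants (adjusted p = 0.173). The receptor gene Dcc stood at 0.777 and 1.32 CPM (adjusted p = 0.247). These genes were singled out after their values were seen.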
